A study of Mus musculus with 12 samples.

Results

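Invariant natural killer T (iNKT)-like cells were picked out by their receptor alone. They were barcodes with exactly 1 productive beta chain (TRB) whose alpha chain (TRA) of most unique molecular identifiers (UMIs, the tags that count captured transcripts) joined TRAV11, TRAV11D or TRAV11N to TRAJ18 with a CDR3 of 15 amino acids. CDR3 is the loop formed where the V, D and J segments are joined. The rule found 196 cells among 5207 paired cells, which had 1 productive TRB and at least 1 productive TRA, and among 7056 cells with any productive receptor chain. These 196 cells made up 165 clonotypes and the other 5011 paired cells 2943, where a clonotype is a pair of TRB and TRA CDR3 nucleotide sequences within a library.

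The cells came from 6 receptor libraries of CD45+ leukocytes sorted from C57BL/6 mice. The libraries were 5xFADTg meninges (1 library), NonTg meninges (1), 5xFADTg parenchyma (2) and NonTg parenchyma (2). The 5xFADTg mice carry transgenes for mutant human amyloid precursor protein and presenilin, driven by a neuronal promoter, and deposit amyloid in the brain, and NonTg mice lack the transgenes. The labels name no age, sex or animal behind a library, so p-values speak only for these libraries, whose spread may be technical. No gene expression file was analysed here, so neither the transcripts of NKT cells nor binding to CD1d could be checked. Since the rule reads only the alpha chain, the beta chain is the independent check of the name.

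iNKT cells are T cells that recognise glycolipids presented by CD1d, a molecule related to those that present peptides. In mice nearly all of them share one alpha chain, TRAV11 joined to TRAJ18, and pair it with a limited set of beta chains, mostly of the TRBV13 family, TRBV29 and TRBV1, whose CDR3 is diverse. They leave the thymus already primed to release cytokines and settle in tissues, where they are studied as early regulators of inflammation.

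The alpha sequences of the 165 clonotypes came in 8 versions. TRAV11 lies on chromosome 14 at 53519303 to 53519859 and TRAJ18 at 54200777 to 54200842 (GRCm38, the assembly named mm10). The end of TRAV11 and the start of TRAJ18, both read from GENCODE M21, are shown with the 7 versions that differ at codon 4, in capitals, because this codon holds the join.

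TRAV11 germline end: tgtgtggtgggcg
TRAJ18 germline start: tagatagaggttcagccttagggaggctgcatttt
version GGC: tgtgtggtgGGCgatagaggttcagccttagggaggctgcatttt
version GGG: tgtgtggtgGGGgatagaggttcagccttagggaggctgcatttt
version GGT: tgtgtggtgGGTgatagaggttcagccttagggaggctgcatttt
version GGA: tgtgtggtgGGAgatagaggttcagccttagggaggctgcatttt
version GCC: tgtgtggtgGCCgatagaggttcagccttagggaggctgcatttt
version GTA: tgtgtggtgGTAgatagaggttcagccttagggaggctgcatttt
version GTC: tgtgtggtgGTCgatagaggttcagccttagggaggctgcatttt

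Version GGC was used by 69 clonotypes (41.8%), GGG by 46, GGT by 21 and GGA by 19. The first 3 of these occurred in all 6 libraries and GGA in 5. GCC was used by 5 clonotypes, GTA by 2 and GTC by 1, and the eighth version, which has GGC followed by gac in place of gat, by 2. The codon therefore reads glycine in 157 clonotypes, alanine in 5 and valine in 3. In GGC, GGA and GTA every base is found in the end of TRAV11 or the start of TRAJ18, so these joins hold no base that neither segment supplies. Among the members 90 of 165 clonotypes (54.5%) had such a join, against 437 of 2943 other clonotypes (14.8%). By library the share was 50% in 5xFADTg meninges, 62.5% in NonTg meninges, 51.9% and 59.3% in 5xFADTg parenchyma and 43.8% and 57.1% in NonTg parenchyma, against 12.5 to 17.4% of the other clonotypes. The mean number of unmatched bases was 0.503 in members and 2.81 in others. The rule fixes the segments and length of the members' alpha chains, which limits their joins, so these values are given with no test. How far the rule sets them was not tested.

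**Figure D1:**
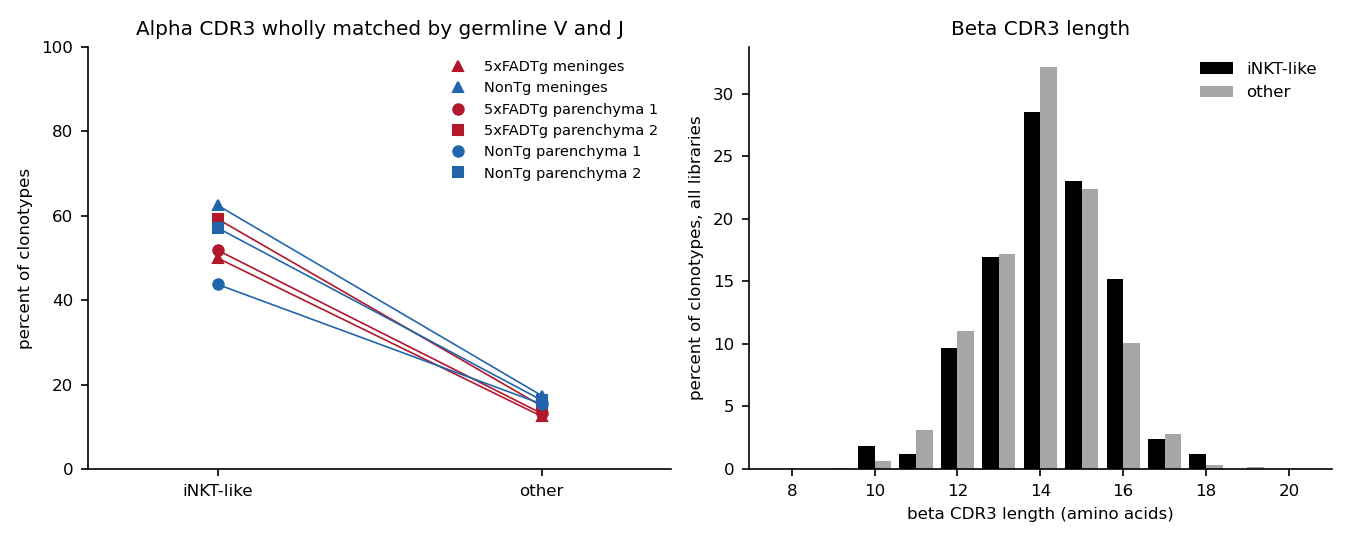
The left panel gives the percent of clonotypes in each library whose alpha CDR3 holds no base outside germline V and J, for iNKT-like and other clonotypes, with a line per library. The right panel gives the percent of clonotypes at each beta CDR3 length in amino acids, all libraries together. iNKT-like alpha joins lie at 43.8 to 62.5% and others at 12.5 to 17.4%, while both beta length distributions peak at 14 amino acids.

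The rule was checked for what it leaves out. All 229 productive TRAV11 to TRAJ18 contigs had 15 amino acids, so the length limit removed none. All 196 members were labelled TRAV11 and 0 TRAV11D, but the transcripts of both genes are the same over the 342 bases compared, so which of them was used is uncertain, whereas TRAV11N differs at 8 of 343 bases. Of the 229 cells with the invariant alpha chain, 196 were members, 18 had 2 or more TRB, 8 had a TRA with more UMIs and 7 had no TRB. All 18 cells with 2 or more TRB had a beta segment usual for iNKT cells in at least 1 of their chains. More chains give such cells more chances of holding one. All 8 cells with a stronger alpha chain had such a segment too. In those 8 cells the invariant chain had 1 to 7 UMIs.

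Every library listed contigs of 15827899 to 26710709 reads and 49997 to 128700 UMIs. No TRG, TRD or immunoglobulin contig was listed, which does not show that such cells were absent, since T cell receptor chains were enriched by PCR. Over all pairs of libraries 23 barcodes occurred in 2 libraries, and 0 of them were members in both.

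iNKT-like clonotypes made up 11.7% of the clonotypes in 5xFADTg meninges (38 of 326, 95% exact binomial interval 8.38 to 15.6%) and 5.59% in NonTg meninges (16 of 286, 3.23 to 8.93%). In 5xFADTg parenchyma they were 27 of 657 and 54 of 784, and in NonTg parenchyma 16 of 606 and 14 of 449. Counted as cells, they were 10.3% of the paired cells of 5xFADTg meninges (38 of 370) and 4.58% of NonTg meninges (16 of 349). The parenchyma libraries had 4.64% and 3.85% in 5xFADTg (56 of 1206 and 56 of 1453) and 1.51% and 1.83% in NonTg (16 of 1063 and 14 of 766). 5xFADTg lay above NonTg in both tissues, and the 5xFADTg meninges above all other libraries. Such intervals cover counting error only.

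**Figure D2:**
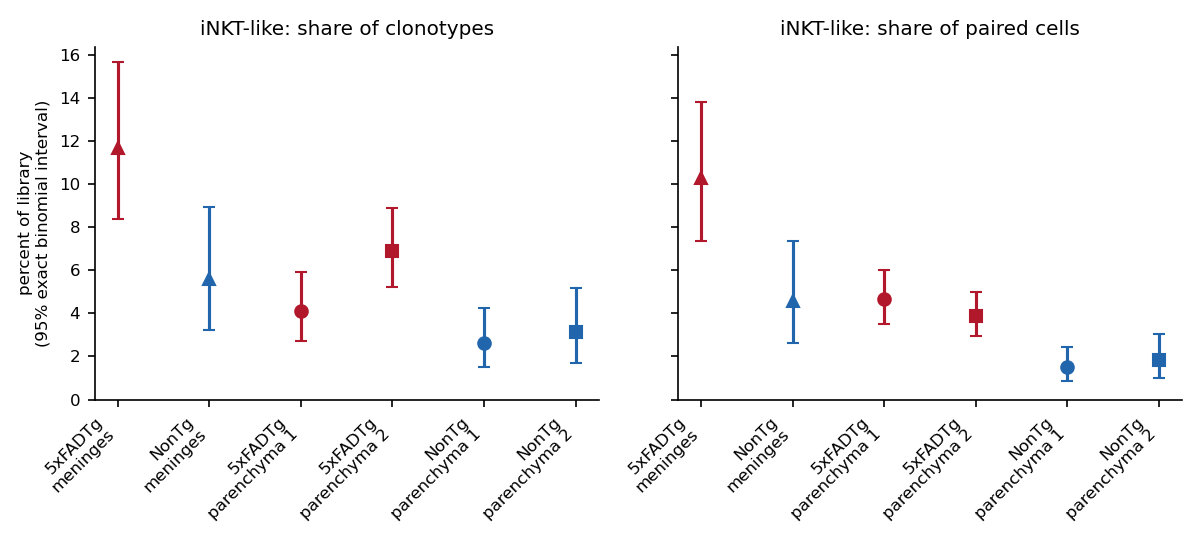
Percent of clonotypes (left) and of paired cells (right) that were iNKT-like in each library, with 95% exact binomial intervals. 5xFADTg meninges stands highest, at 11.7% of clonotypes and 10.3% of cells, and the NonTg parenchyma libraries lowest, at 2.64 and 3.12% of clonotypes and 1.51 and 1.83% of cells.

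The share of paired cells averaged 4.25% ± 0.558 in 5xFADTg and 1.67% ± 0.228 in NonTg parenchyma (SD, n = 2 each). The difference was 2.58 points (exact permutation p = 0.333, two-sided, the smallest that 2 against 2 can give, Benjamini-Hochberg adjusted p = 0.556 over 5 values). In 5xFADTg parenchyma 1, 30 of the 56 members belonged to one clonotype, and without it the difference was 1.37 points, an alternative chosen after seeing the data. Meninges averaged 7.43% ± 4.02 (n = 2) and parenchyma 2.96% ± 1.53 (n = 4), a difference of 4.47 points with overlapping libraries (exact permutation p = 0.267, adjusted p = 0.667, where 0.133 is the smallest possible). Leaving out 1 library moved that difference to between 1.63 and 7.31 points, the lowest without 5xFADTg meninges and the highest without NonTg meninges. Neither comparison can reach 0.05.

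The beta chains of these cells were those known for mouse iNKT cells. A TRBV of the list TRBV13-1, TRBV13-2, TRBV13-3, TRBV29 and TRBV1 was used by 155 of 165 iNKT-like clonotypes (93.9%, 95% exact interval 89.1 to 97.1%), against 999 of 2943 others (33.9%). By library the share was 94.7% in 5xFADTg meninges, 87.5% in NonTg meninges, 96.3% and 94.4% in 5xFADTg parenchyma and 87.5% and 100% in NonTg parenchyma. The other clonotypes of the same libraries lay between 31.2 and 39.0%, so no library of one class overlapped the other. The mean difference within libraries was 59.5 ± 4.68 percentage points (SD, n = 6, higher in 6 of 6). Its exact two-sided sign-flip permutation p of 0.0312 is the smallest that 6 libraries allow, with a Benjamini-Hochberg adjusted p of 0.0859 over the 11 values compared in this way. None of the 11 passes 0.05 after adjustment, and with 1 library left out no p can go below 0.0625.

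The larger comparison classes stood lower. Of 41 other clonotypes with TRAJ18, 41.5% used the list (26.3 to 57.9%), and of 23 with a receptor like that of mucosal-associated invariant T cells (TRAV1 joined to TRAJ33 with 12 amino acids) 65.2% did (42.7 to 83.6%). Of 6 other clonotypes with TRAV11, 4 used it (66.7%, 22.3 to 95.7%), an interval that includes the members' 93.9%. TRBV13-2 was in 3 of these 6, and 5 of their 6 cells held a second productive TRA. In 1 of those 6 cells the second chain was the invariant one. Members with few alpha transcripts were no exception, since 26 of 26 with up to 2 TRA UMIs used the list, against 160 of 170 with more.

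TRBV13-2 alone was used by 81 iNKT-like clonotypes. It lies on chromosome 6 at 41121396 to 41121832 (GRCm38). Its share was 47.4% in 5xFADTg meninges, 50% in NonTg meninges, 44.4% and 51.9% in 5xFADTg parenchyma and 31.2% and 71.4% in NonTg parenchyma, against 9.73 to 11.5% of the other clonotypes. Members ranged widely in NonTg parenchyma, where the shares rest on 5 of 16 and 10 of 14 clonotypes, but every library had members above others. The mean difference was 38.8 ± 12.9 points (SD, n = 6, exact sign-flip p = 0.0312, adjusted p = 0.0859).

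The TRBV13-2 count rests on a joint label. The files name 73 of the 81 clonotypes TRBV12-2+TRBV13-2, after 2 neighbouring genes, and only 8 plainly TRBV13-2. The germline ends of both genes, from the first CDR3 base, are shown from GENCODE M21. Both open with the same 9 bases, and the bases after these, which tell the genes apart, are in capitals.

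TRBV13-2 germline end: tgtgccagcGGTGATG
TRBV12-2 germline end: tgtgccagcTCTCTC

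Of the 73 jointly labelled iNKT-like clonotypes, 71 had a CDR3 that matched TRBV13-2 over more bases, 0 matched TRBV12-2 over more and 2 matched both equally. Among other clonotypes with the joint label the numbers were 258, 1 and 4 of 263. All 168 other clonotypes labelled TRBV12-2 alone matched TRBV12-2 over more bases. The joint label was therefore counted as TRBV13-2. With it left out, the difference in plain TRBV13-2 was 3.27 points (exact sign-flip p = 0.344, n = 6).

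Across all beta segments, edgeR's quasi-likelihood test with library as block called 19 of 32 segments at an adjusted p of 0.05 (59.4%), with 6 higher in iNKT-like clonotypes (18.8%) and 13 lower (40.6%). The TRBV shares of a class add up to the whole, as do its TRBJ shares, so segments that rise force others down. Lower calls are therefore not separate from the higher ones. At an unadjusted p of 0.05 it called 20 (62.5%), and DESeq2 called 11 (34.4%), all of them among the 19. Another scaling, TMM factors, lowered the median log2 fold change of all 32 segments to -1.54, against -1.12 without them. It called 4 higher and 18 lower, with TRBV5, TRBV13-3, TRBV17, TRBJ1-6 and TRBJ2-2 added as lower and the calls of TRBV1 and TRBJ1-2 lost. Of the 5 TRBV on the iNKT list 4 were called higher and 0 lower, with a median log2 fold change of 1.42, against -0.78 over 31 segments when those with no iNKT-like clonotype are set at their bound. TRBV23 was left out of that median because both classes lay under the limit of a count of 0.

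TRBV13-2 had a log2 fold change of 2.24 (SE 0.19, edgeR adjusted p = 3.8e-22). edgeR shares its estimate of spread over segments, so its p-values do not measure each segment's own spread between libraries. Tested over libraries, the TRBV13-2 difference had an exact sign-flip p of 0.0312 (adjusted p = 0.0859). TRBV13-1 was used by 28 of 165 iNKT-like clonotypes (17.0%) and 6.05% of others, a log2 fold change of 1.42 (SE 0.32, edgeR adjusted p = 0.000125). In members it ran from 11.1% in 5xFADTg parenchyma 1 to 25.0% in NonTg meninges and NonTg parenchyma 1, all above the others of those libraries. TRBV29 was used by 24 iNKT-like clonotypes (14.5%) and 5.03% of others (log2 fold change 1.55, SE 0.35, edgeR adjusted p = 0.000125), again higher in 6 of 6 libraries. Its member shares were 15.8% and 6.25% in 5xFADTg and NonTg meninges, 14.8% in each 5xFADTg parenchyma library and 25.0% and 7.14% in NonTg parenchyma.

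TRBV1 was used by 15 iNKT-like clonotypes (9.09%) and 4.66% of others. Its log2 fold change of 0.93 (SE 0.41) passed narrowly (edgeR adjusted p = 0.0497) and was higher in 4 of 6 libraries. NonTg meninges and NonTg parenchyma 2 held 0 iNKT-like clonotypes with it. The call was lost without 5xFADTg parenchyma 1 (log2 fold change 0.62), 5xFADTg parenchyma 2 (0.80), NonTg parenchyma 1 (0.95) or 5xFADTg meninges (0.99), and with no count filter (edgeR adjusted p = 0.0513). Counted over cells the direction turned, to -0.32. TRBV13-3 was not called, with 7 iNKT-like clonotypes (4.24%) and 7.71% of others (log2 fold change -0.81, SE 0.48, edgeR adjusted p = 0.159). Those 7 clonotypes held 36 cells, so over cells its value was 0.78.

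**Figure D3:**
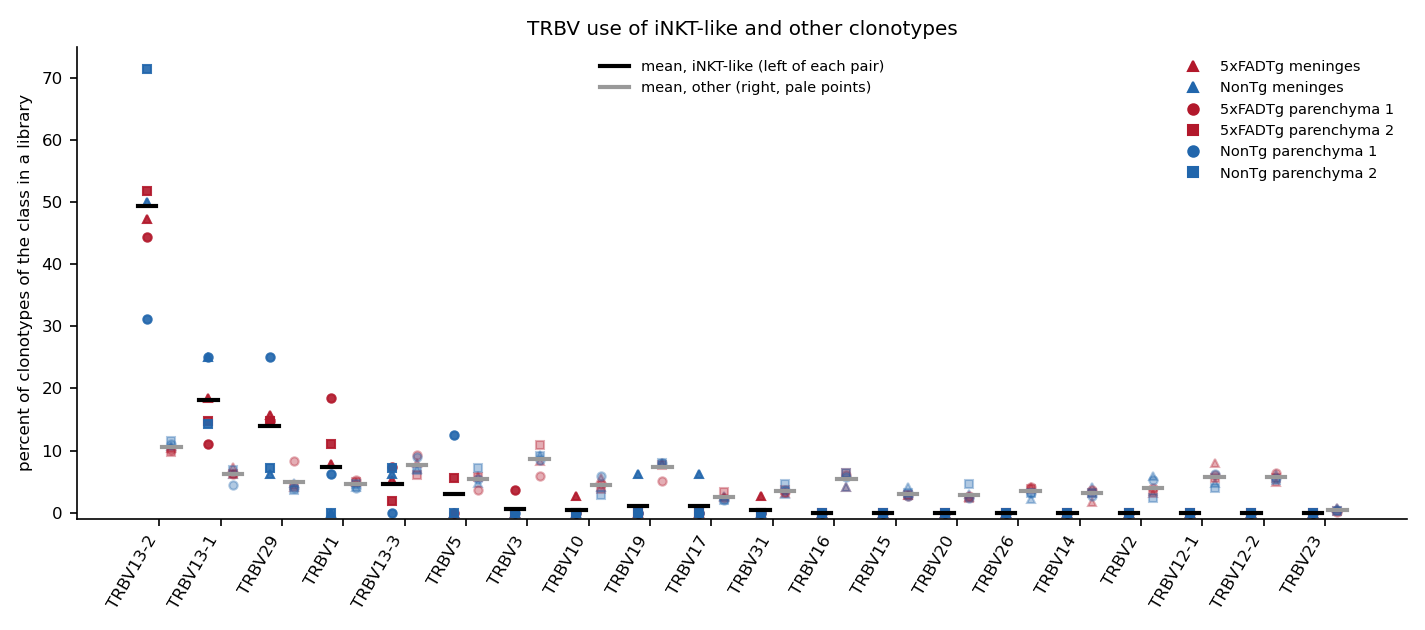
Percent of clonotypes using each TRBV segment in each library, for iNKT-like clonotypes (left of each pair, black bar the mean of 6 libraries) and other clonotypes (right, pale points, grey bar the mean). TRBV13-2, TRBV13-1 and TRBV29 lie above the others in all libraries, and 9 segments have no iNKT-like clonotype.

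The other TRBV were rare or missing. TRBV12-1, TRBV12-2, TRBV16, TRBV2, TRBV26, TRBV14, TRBV15 and TRBV20 were called lower and had 0 of 165 iNKT-like clonotypes, which allows a share of up to 1.82% (3 clonotypes over all libraries). Others used them at 2.82 to 5.74%, so they were at least 1.55-fold (TRBV20) to 3.16-fold (TRBV12-1 and TRBV16) lower. How much of this follows from the higher share of the iNKT list was not tested. TRBV3, TRBV19, TRBV10 and TRBV31 were called lower with 1 iNKT-like clonotype each. Their ratio of shares, members over others, was 0.0699 for TRBV3 (95% counting interval 0.00176 to 0.393), 0.0833 for TRBV19 (0.00210 to 0.469), 0.136 for TRBV10 (0.00342 to 0.772) and 0.170 for TRBV31 (0.00426 to 0.967). The TRBV31 call was lost without 5xFADTg parenchyma 1 (edgeR adjusted p = 0.0727), 5xFADTg parenchyma 2 (0.169) or NonTg parenchyma 2 (0.0581), and the TRBV10 call without 5xFADTg parenchyma 2 (0.0547). DESeq2 did not call TRBV10, TRBV14, TRBV15, TRBV20 or TRBV31 (DESeq2 adjusted p = 0.0523 to 0.0913).

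TRBV5 held 5 iNKT-like clonotypes (3.03%) and 5.37% of others and was not called (log2 fold change -0.82, SE 0.57, edgeR adjusted p = 0.224). Together with 1 clonotype each of TRBV3, TRBV10, TRBV17, TRBV19 and TRBV31, these are the 10 members outside the list. Their alpha chains had 4 to 305 UMIs and their beta CDR3 12 to 16 amino acids. The TRBV5 clonotypes came from 5xFADTg parenchyma 2 (3) and NonTg parenchyma 1 (2), and all 5 joined a TRBJ2 segment.

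Joining segments differed less. TRBJ1-5 was used by 12 iNKT-like clonotypes (7.27%) and 2.48% of others (log2 fold change 1.65, SE 0.46, edgeR adjusted p = 0.00401, higher in 6 of 6 libraries). TRBJ1-2 was used by 19 (11.5%) and 6.35% (0.89, SE 0.37, edgeR adjusted p = 0.0332, higher in 6 of 6). TRBJ2-3 was used by 5 (3.03%) and 8.05% (-1.41, SE 0.53, edgeR adjusted p = 0.0209, lower in 5 of 6). Both of the last calls were lost without 5xFADTg parenchyma 1 or 5xFADTg parenchyma 2, where TRBJ1-2 stood at 0.70 and 0.80 and TRBJ2-3 at -1.17 and -0.80. Over cells both calls were lost too (0.52 and -1.32), as they were with DESeq2 (DESeq2 adjusted p = 0.0806 and 0.0917), and that of TRBJ1-2 also with TMM factors (0.45) and at 2 UMIs per chain (0.61). TRBJ2-7, the most used, had 34 iNKT-like clonotypes (20.6%) and 19.5% of others (0.07, SE 0.20, edgeR adjusted p = 0.833, and -0.36 with TMM factors). In 5xFADTg meninges TRBJ1-2 nearly tied, at 5.26% of members (2 of 38) and 5.21% of others. TRBJ1-5 had 2.63% (1 of 38) and 2.08% there. In NonTg meninges each had 1 of 16 member clonotypes (6.25%), against 5.19% of others for TRBJ1-2 and 4.07% for TRBJ1-5.

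The remaining TRBJ used by at least 5 iNKT-like clonotypes, TRBJ1-1 (23), TRBJ2-1 (16), TRBJ2-4 (16), TRBJ2-5 (14), TRBJ1-4 (11), TRBJ1-3 (8) and TRBJ2-2 (6), had log2 fold changes between -0.83 and 0.27 and were not called, and with TMM factors TRBJ1-1, TRBJ2-4 and TRBJ1-4 turned to -0.15, -0.31 and -0.35. The whole TRBJ2 cluster served 57.9% of member clonotypes in 5xFADTg meninges, 68.8% in NonTg meninges, 55.6% and 50% in 5xFADTg parenchyma and 68.8% and 35.7% in NonTg parenchyma. Others lay at 63.2 to 67.4%, and members were lower in 4 of 6 libraries. The mean difference was -9.77 ± 12.2 points (SD, n = 6, exact sign-flip p = 0.125), and -5.53 without NonTg parenchyma 2. In all, 51 pairs of 11 TRBV and 12 TRBJ occurred, led by TRBV13-2 with TRBJ2-7 in 15 clonotypes, with TRBJ1-2 and TRBJ2-1 in 11 each, and with TRBJ1-1 in 10.

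**Figure D4:**
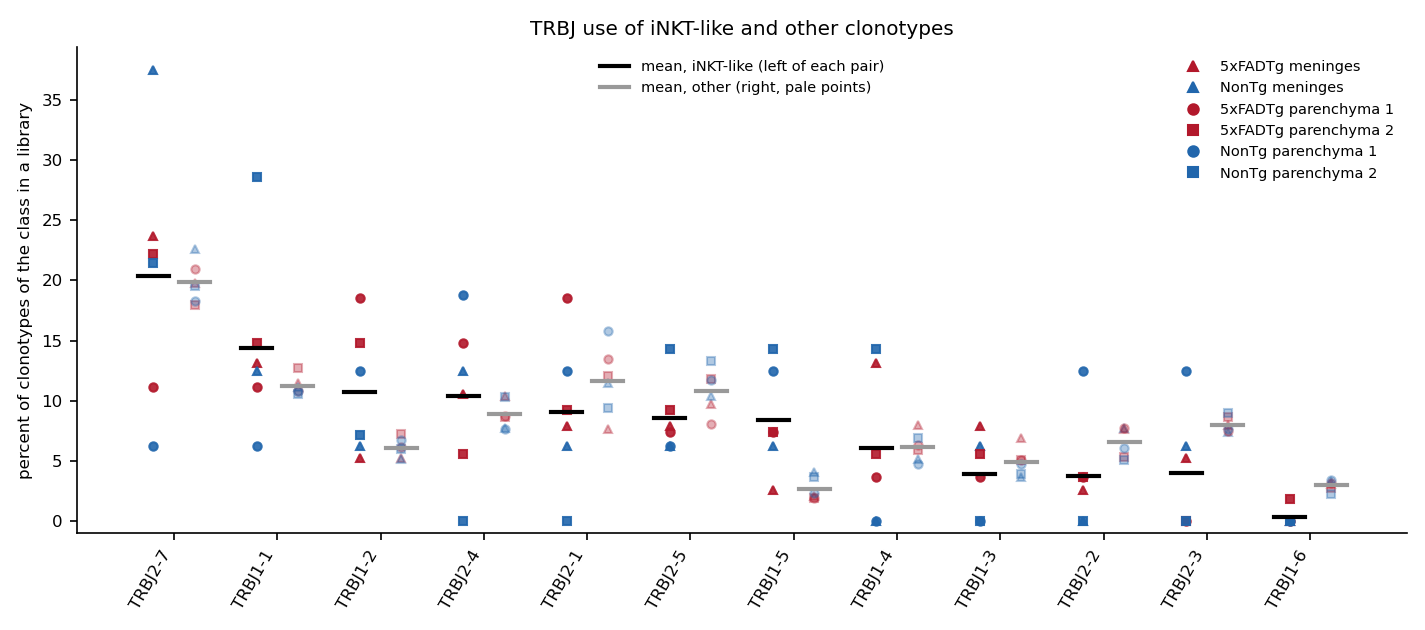
Percent of clonotypes using each TRBJ segment in each library, for iNKT-like clonotypes (left of each pair, black bar the mean of 6 libraries) and other clonotypes (right, pale points, grey bar the mean). TRBJ1-5 and TRBJ1-2 are higher in iNKT-like clonotypes in 6 of 6 libraries, though in each meninges library this rests on 1 or 2 clonotypes. The iNKT-like shares spread more widely than the others.

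D segments could hardly be read from the files, which name one for 5 of 165 iNKT-like clonotypes. The beta CDR3 bases that germline V and J left unmatched were therefore searched for runs of 6 bases found in only 1 of the germline D segments. These matched TRBD1 alone in 64 iNKT-like clonotypes and TRBD2 alone in 45, and the other 56 matched neither or both.

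TRBD1, which can join both J clusters, made up 93.0% of the matched iNKT-like clonotypes with TRBJ1 and 93.4% of others. With TRBJ2 it was 36.4% and 33.8%. The deposited calls covered members of 3 libraries, with a mean difference in TRBD1 share of 18.6 points (SD 39.4, exact sign-flip p = 0.5) and 5.19 to 41.2 with 1 library left out.

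Nearly every iNKT-like clonotype had a beta CDR3 that no other iNKT-like clonotype held. The 165 clonotypes held 164 different beta proteins, of 10 to 18 amino acids, and 1 of the 164 occurred in 2 libraries (0.610%), against 137 of 2720 in other clonotypes (5.04%). The lists differ in size and in cells per clonotype (162 of the 165 iNKT-like clonotypes had 1 cell), and these shares were not tested. Of the 164 iNKT-like beta proteins, 4 also occurred in other clonotypes. Mean length was 14.1 and 14.2 amino acids in 5xFADTg and NonTg meninges, 14.2 and 14.1 in 5xFADTg parenchyma and 15.1 and 13.5 in NonTg parenchyma, against 13.9 to 14.1 in others. The mean difference was 0.19 ± 0.48 amino acids (SD, n = 6, exact sign-flip p = 0.5), with members longer in 4 of 6 libraries. Without NonTg parenchyma 1 it was 0.016. Hydropathy of the CDR3 centre (Kyte-Doolittle scale, 4 residues left out at each end, lower being more hydrophilic) averaged -1.35 ± 0.240 in members and -1.12 ± 0.0449 in others. Members were lower in 5 of 6 libraries, all but 5xFADTg meninges (difference -0.23 ± 0.22, exact sign-flip p = 0.0938). Against only the others with a TRBV of the iNKT list the difference was -0.07 (exact sign-flip p = 0.5, n = 6), and over cells -0.41 (exact sign-flip p = 0.0625).

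Within TRBV13-2, where both classes share the V segment, members had 14.5 ± 1.43 amino acids over 81 clonotypes and others 13.99 ± 1.49 over 309 (SD over clonotypes, pooled over libraries and not tested). The stretch that neither germline V nor J matched averaged 11.04 bases in members and 9.88 in others. By library it was 11.7 bases in 5xFADTg meninges, 11.9 in NonTg meninges, 9.5 and 11.1 in 5xFADTg parenchyma and 14.6 and 9 in NonTg parenchyma, against 9.31 to 10.3 in others. Members were above the others of their library in 4 of 6 libraries, not in 5xFADTg parenchyma 1 or NonTg parenchyma 2.

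Most iNKT-like receptors were seen in a single cell. Of the 165 clonotypes 162 had 1 cell. The same was true of most others, since 2443 of 2833 distinct other receptors had 1 cell in every library that held them. The share of members in clonotypes of 2 or more cells was 0% in 5xFADTg meninges, NonTg meninges and both NonTg parenchyma libraries, 53.6% in 5xFADTg parenchyma 1 and 7.14% in 5xFADTg parenchyma 2. In other cells it was 18.7%, 27.6%, 52.3%, 50.5%, 53.1% and 57.0% in the same libraries. Members were thus lower in 5 of 6 libraries, and level in 5xFADTg parenchyma 1 (0.44 points higher).

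The mean difference was -33.1 ± 21.5 percentage points (SD, n = 6, exact sign-flip p = 0.0625, adjusted p = 0.138). Without the largest iNKT-like clonotype, an alternative chosen after seeing the data, it was -42.0 points, given with no test because taking out this clonotype itself lowers the members' share in its library. A count of 0 allows up to 7.89% in 5xFADTg meninges but up to 21.4% in NonTg parenchyma 2, where only 14 members were sampled.

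The 4 clonotypes with more than 1 cell or in 2 libraries are shown by the nucleotide sequence of their beta CDR3, with the bases that neither germline V nor J matches in capitals.

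TRBV13-3 TRBJ1-1, 30 cells of 5xFADTg parenchyma 1: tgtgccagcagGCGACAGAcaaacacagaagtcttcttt
TRBV13-2 TRBJ2-4, 2 cells of 5xFADTg parenchyma 2: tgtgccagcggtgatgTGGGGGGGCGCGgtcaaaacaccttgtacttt
TRBV13-2 TRBJ2-5, 2 cells of 5xFADTg parenchyma 2: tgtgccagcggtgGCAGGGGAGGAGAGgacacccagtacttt
TRBV29 TRBJ1-4, 1 cell each of 5xFADTg meninges and 5xFADTg parenchyma 2: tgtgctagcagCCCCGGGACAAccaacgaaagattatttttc

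The TRBV13-3 clonotype was the sixth largest of its library, at 2.49% of its paired cells. It carried alpha version GGC, 8 unmatched beta bases and medians of 60.5 TRA and 8 TRB UMIs. Its beta chain was found in 37 cells of any kind, all of that library, and 26 members of the library lay outside it. Without it 2.21% of that library's remaining paired cells were iNKT-like. The TRBV29 receptor was the single one of 164 distinct iNKT-like receptors found in 2 libraries (0.610%), both 5xFADTg, against 110 of 2833 distinct others (3.88%). Among others with 1 cell in every library that held them the share was 1.19% (29 of 2443).

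Chain pairing was checked in the other direction. For 2 members the same beta nucleotide sequence was held mostly by cells with another alpha chain. One, of NonTg parenchyma 1 with TRBV29 and TRBJ2-3, had 3 TRA and 1 TRB UMIs, and 11 other paired cells with its beta chain had TRAV3D-3 and TRAJ22. The other, of 5xFADTg parenchyma 1 with TRBV3 and TRBJ2-2, had 77 TRA and 8 TRB UMIs, and its beta chain was in 4 cells of 5xFADTg meninges with TRAV3D-3 and TRAJ32. Whether these pairings are real was not tested. Without both members, chosen after seeing the data, the difference in the iNKT list was 59.9 points and the segment count stayed at 19 of 32, all of them among the 19 above.

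**Figure D5:**
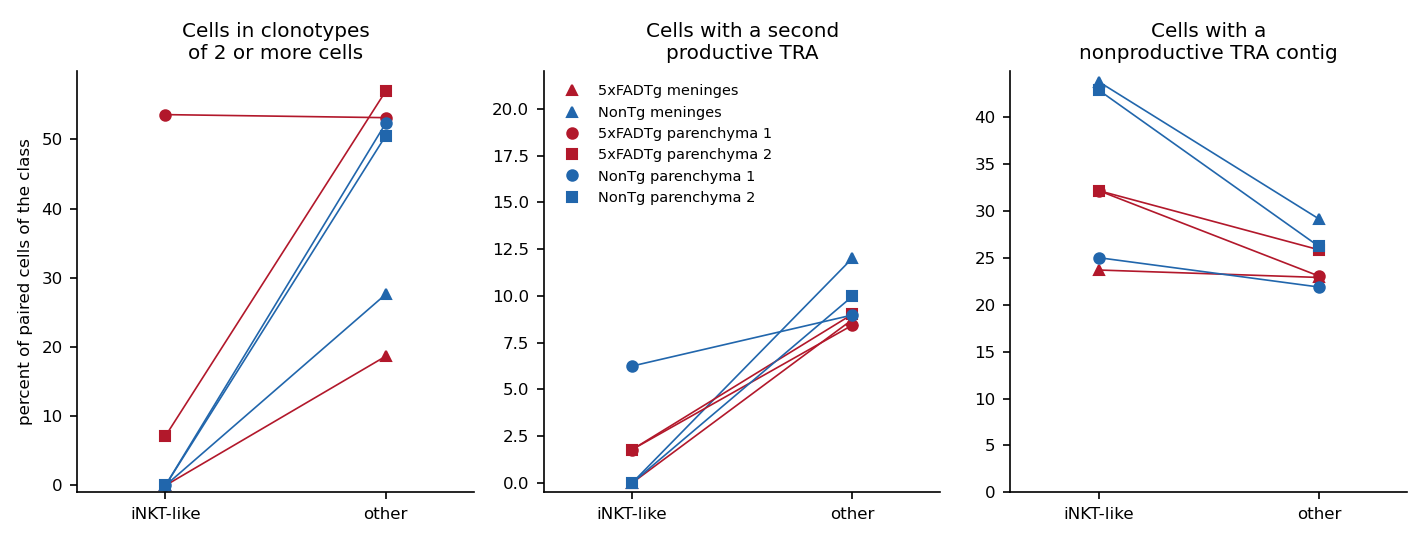
Percent of paired cells in clonotypes of 2 or more cells (left), with a second productive TRA (middle) and with a nonproductive TRA contig (right), for iNKT-like and other cells of each library, with a line per library. 5xFADTg parenchyma 1 stands at 53.6% of members in such clonotypes and the other libraries at 0 to 7.14%.

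A T cell can rearrange both of its alpha alleles, so a second alpha transcript may be seen, productive or not. A second productive TRA was found in 3 of 196 members (1.53%), with 2 UMIs in each, and in 461 of 5011 others (9.20%). Member shares were 0% in both meninges libraries and NonTg parenchyma 2, 1.79% in each 5xFADTg parenchyma library and 6.25% in NonTg parenchyma 1, against 8.43 to 12.01% in others. The mean difference was -7.89 ± 3.18 points (SD, n = 6, exact sign-flip p = 0.0312, adjusted p = 0.0859). The rule favours this direction, since it drops cells whose second chain has more UMIs. With the invariant chain at any rank, 11 of 204 cells (5.39%) had a second TRA and the difference was -4.76 points (exact sign-flip p = 0.0938, n = 6).

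A nonproductive TRA contig was listed for 62 of 196 members (31.6%) and 24.4% of others. By library it was 23.7% of members in 5xFADTg meninges, 43.8% in NonTg meninges, 32.1% in each 5xFADTg parenchyma library and 25.0% and 42.9% in NonTg parenchyma. The others of these libraries stood at 22.9%, 29.1%, 23.0%, 25.8%, 21.9% and 26.2% in the same order. Members were higher in 6 of 6 libraries, by 0.793 to 16.7 points, with a mean of 8.43 ± 6.28 (SD, n = 6, exact sign-flip p = 0.0312, adjusted p = 0.0859). With at least 2 UMIs per chain it was 7.30 points and no longer past the threshold (exact sign-flip p = 0.0938). Nonproductive TRA contigs of members had a median of 61 UMIs. The invariant TRA had a median of 43.5 over all members, most of which lacked such a contig, so these medians come from unlike sets of cells. In 5xFADTg meninges the 9 members with such a contig had 1 to 21 TRA UMIs, where the median of all members was 55. Such members had 1 to 4 in NonTg meninges, 1 to 8 in NonTg parenchyma 1 and 1 to 17 in 5xFADTg parenchyma 2. The highest values were 83 in 5xFADTg parenchyma 1 and 100 in NonTg parenchyma 2, where the next highest were 29 and 4. Whether capture of the invariant chain affects this share was not tested. Of the 61 such contigs with a J call in members, 44 (72.1%) used TRAJ18 or a segment upstream of it, nearer to the V segments, against 82.7% of 1217 in others. 5xFADTg parenchyma 1 went the other way, with 17 of 19 in members (89.5%), against 81.9% in others, and in the remaining libraries members lay at 50 to 75.0%. Cells of 1 clonotype were counted separately, among them 10 cells of a 30-cell clonotype of 5xFADTg parenchyma 1, and the difference in J segments was not tested.

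Chain depth did not differ in one direction across libraries. Median TRA UMIs were 55 and 38.5 in members of 5xFADTg and NonTg meninges, 53 and 36.5 in 5xFADTg parenchyma and 54.5 and 44.5 in NonTg parenchyma. In others they were 51.5, 79, 50, 34, 49 and 60.5 in the same order. Members were higher in 4 of 6 libraries, and the mean log2 ratio was -0.17 ± 0.48 (SD, n = 6, exact sign-flip p = 0.5), and -0.0017 without NonTg meninges. Median TRB UMIs were 5 to 12.5 in members and 8 to 9 in others (mean log2 ratio 0.03 ± 0.41, SD, n = 6, exact sign-flip p = 0.875). Members with at most 2 TRA UMIs were 13.3%, against 7.20% of others.

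Within the members 3 more values were set side by side between genotypes and between tissues. TRBV13-2 made up 48.1% ± 5.24 of iNKT-like clonotypes in 5xFADTg and 51.3% ± 28.4 in NonTg parenchyma (SD, n = 2 each, exact permutation p = 1). It made up 48.7% ± 1.86 in meninges (n = 2) and 49.7% ± 16.8 in parenchyma (n = 4, exact permutation p = 1). Mean beta length was 14.2 ± 0.0655 and 14.3 ± 1.15 amino acids in 5xFADTg and NonTg parenchyma (n = 2 each, exact permutation p = 1). In meninges it was 14.1 ± 0.0768 (n = 2), and in parenchyma 14.2 ± 0.669 (n = 4, exact permutation p = 0.8). The share of members in clonotypes of 2 or more cells was 30.4% ± 32.8 in 5xFADTg and 0% in both NonTg parenchyma libraries (n = 2 each, exact permutation p = 0.333, the smallest possible). The observed 5xFADTg values thus lay above both NonTg values. A count of 0, however, allows up to 18.8% and 21.4% in NonTg parenchyma 1 and 2. Both limits lie above the 7.14% of 5xFADTg parenchyma 2, so the order of that library is not resolved. The share of members in such clonotypes was 0% in both meninges libraries, against 15.2% ± 25.8 in parenchyma (n = 4, exact permutation p = 0.8). Without 5xFADTg parenchyma 1 those last differences were 7.14 and -2.38 points, which is the library that holds the 30-cell clonotype.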

How the data were processed

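The deposited tables list every assembled contig with its V, D, J and C labels, CDR3, productive status and raw counts of reads and UMIs, with no normalization, per the file headers. The submitters' processing notes name Cell Ranger 6.0 and mm10, and the labels' protocols the 10x Immune Profiling v2 kit. Contig filters are not stated there. All listed contigs were marked as cells and high confidence, and the 6 gene expression samples were not analysed here. From productive contigs, cells with 1 TRB and at least 1 TRA were kept, with the TRA of most UMIs (ties by reads, 21 cells with equal UMIs). Cells with 2 or more TRB, which can be doublets, were left out, and no doublet caller was run.

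Library values were compared by exact permutation, two-sided: sign-flips over 6 libraries, or group labels for 2 against 2 and 2 against 4, at a threshold of 0.05, with Benjamini-Hochberg adjustment over 11, 5 and 5 values. TRBV and TRBJ clonotype counts (at least 10 per segment) were tested with edgeR 4.0.16 (limma 3.58.1, R 4.3.3, library as block, clonotype number as library size), tested on simulated data. Standard errors are the log2 fold change over the root of F. DESeq2 1.42.0 was an alternative. Intervals are exact (Clopper-Pearson). PCR products are counted as UMIs, and intervals and limits of a count of 0 (3 counts) cover counting error only. Germline matches are the longest runs from each CDR3 end to GENCODE M21 (GRCm38), so a match by chance counts as germline. Other steps ran in Python 3.11.15 (scipy 1.17.1, numpy 2.4.6, pandas 2.3.3) with figures from matplotlib 3.10.9. Segments named are those called, those of the iNKT list and those with at least 5 member clonotypes, with every clonotype of 2 or more cells or in 2 libraries. Others named were chosen after their values were seen. The members and lists were chosen with earlier results of these data known.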

Additional observations from a re-analysis of the deposited data

Results flagged for a closer look

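Among the 4 parenchyma libraries, the share of iNKT-like cells in clonotypes of 2 or more cells stood apart in 5xFADTg parenchyma 1, at 53.6%, against 7.14% in 5xFADTg parenchyma 2 and 0% in both NonTg libraries. Its gap to the nearest library was 0.867 of the whole range. The clonotype behind it has 30 cells with TRBV13-3 and TRBJ1-1. The cutoff it passed is one that chance passes in about 1 in 20 groups of normally distributed values. Both NonTg values are 0, so that rate may not hold here. Other paired cells of 5xFADTg parenchyma 1 stood at 53.1%. The cause of the gap was not tested.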

How the results depend on the processing

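The number of called beta segments was 15 to 20 with 1 library left out and 16 to 22 under the other alternatives (main 19), except for DESeq2, which called 11 and lost TRBV1, TRBV10, TRBV14, TRBV15, TRBV20, TRBV31, TRBJ1-2 and TRBJ2-3. With TMM factors 18.2% of the calls were in the higher direction, against 31.6%. TRBV13-2, TRBV13-1, TRBV29, TRBJ1-5, TRBV3, TRBV19, TRBV12-1, TRBV12-2, TRBV16, TRBV2 and TRBV26 kept direction and call under all 14 alternatives. Log2 fold changes that turned were, with TMM factors, TRBJ1-1 (-0.15), TRBJ2-4 (-0.31), TRBJ2-7 (-0.36) and TRBJ1-4 (-0.35), and over cells TRBV1 (-0.32), TRBV13-3 (0.78), TRBJ2-7 (-0.15) and TRBJ1-4 (-0.25). With at least 2 UMIs per chain TRBJ1-1 (-0.021) and TRBJ1-3 (0.027) turned. Leaving out 1 library gave -0.072 to 0.36 for TRBJ2-4, -0.042 to 0.22 for TRBJ2-7, -0.27 to 0.012 for TRBJ1-3 and -0.31 to 0.17 for TRBJ1-4. None of these turned values was past the threshold.

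With 1 library left out, the 4 within-library differences that had passed no longer could, because 5 libraries cannot give a p under 0.0625. Their sizes ranged from 58.1 to 60.4 points for the iNKT list, 34.6 to 42.5 for TRBV13-2, -8.92 to -7.06 for a second TRA and 6.79 to 9.96 for a nonproductive TRA. The share in clonotypes of 2 or more cells, with an exact sign-flip p of 0.0625, passed at 0.0312 with the invariant chain at any rank (-33.5 points), against others with the iNKT list (-35.8) and with the beta CDR3 alone (-33.5). Without the largest iNKT-like clonotype it was -42.0 points, a value with no test because the removal itself lowers it. The threshold was missed for a second TRA with the invariant chain at any rank (-4.76 points), for a nonproductive TRA at 2 UMIs per chain (7.30) and for TRBV13-2 without the joint label (3.27). The log2 ratio of TRB UMIs turned against others with the iNKT list (-0.023), with means (-0.050) and with 5xFADTg meninges or NonTg meninges left out (range -0.058 to 0.17 over all libraries left out in turn). The causes of these changes were not tested.

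Left-out libraries also turned values that passed no test. TRBV13-2 use ran from -23.3 to 16.9 points between genotypes and from -7.22 to 6.17 between tissues. Mean beta length ran from -0.95 to 0.68 amino acids between genotypes and from -0.36 to 0.18 between tissues. Over cells the tissue differences turned to 4.26 points and 0.039 amino acids.

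Same-numbered parenchyma libraries deviated together over 33 segments (correlation 0.535 in members, 0.308 in others), but with 2 pairs and no label that ties the numbers to a shared source they were not treated as paired. With the replicate block the genotype differences stayed at 2.62 points for clonotypes, 2.58 for cells, -3.19 for TRBV13-2, -0.14 amino acids for beta length and 30.4 points for clonotypes of 2 or more cells, with exact p-values of 0.5 to 1, where 0.5 is the smallest that 2 pairs allow. With 14 to 56 members per library, 1 member moves a share by 1.79 to 7.14 points.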
